A study of Rattus norvegicus with 256 samples.

Results

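The chemokines and chemokine receptors of the rat were followed across 31 organs on Affymetrix RAE230_2 genechips. Members were all probesets with a single gene symbol that starts with Ccl, Cxcl, Ccr, Cxcr, Xcl, Xcr, Ackr, Cx3cl or Cx3cr followed by a digit. This gave 58 of the 31042 probesets on the chip, which represent 45 genes: 29 ligands, 12 receptors and 4 atypical receptors. A single probeset was present for 37 of these genes and several for the remaining 8. Where 1 value per gene is given, it is that of the probeset with the highest mean over all arrays. A further 12 genes that RefSeq names by the same pattern, among them Ccl25, Ccr7 and Ccr9, were not analysed here.

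The animals were Han Wistar-derived rats (AlpkHsdBrlHan:WIST), 5 males and 5 females. Neither a treatment nor an age is given in the sources used here. In total 127 male and 129 female arrays were analysed, from 26 somatic organs of both sexes and 5 sex-specific organs, at 3 to 10 arrays per organ. Each array holds RNA from a piece of whole organ of 1 animal, so that in all results below fewer cells of a type and less RNA per cell cannot be told apart. Values are log2 GC-RMA expression levels, in which a difference of 1 is a 2-fold difference, and a probeset is called expressed in an organ when its mean exceeds 6.65, the background limit used by the study. Levels are compared only within a probeset, since each probeset has its own hybridisation strength.

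Chemokines are small secreted proteins that attract leukocytes along a concentration gradient and act through G protein-coupled receptors on the leukocyte surface. Homeostatic chemokines such as Ccl19, Ccl21, Cxcl12 and Cxcl13 place lymphocytes within lymphoid organs, whereas inflammatory chemokines such as Ccl2, Cxcl1 and Cxcl10 are mostly induced by injury or infection. Atypical receptors bind chemokines without the usual signalling and remove or transport them.

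Before the levels are given, 4 promoters are shown as sequence, all with an NF-kB match and from genes called in the organ comparisons below. Called genes without such a match, among them Ccl19, Ccl24 and Cxcl13, are not shown. Cxcl10 and Cxcl11 are adjacent genes with the spleen as leading organ, Ccl20 leads in the ileum and Ccl7 in the uterus. Sequences are from RefSeq (GRCr8), run 5′ to 3′ from 250 bases before to 50 bases after the gene start, and capitals mark matches to an NF-kB consensus site, to an interferon-stimulated response element (GAAA, any 2 bases, GAAA) or to a TATA box (TATAAA), each searched on both strands.
Cxcl10 (chr14:15988816-15989115, plus strand): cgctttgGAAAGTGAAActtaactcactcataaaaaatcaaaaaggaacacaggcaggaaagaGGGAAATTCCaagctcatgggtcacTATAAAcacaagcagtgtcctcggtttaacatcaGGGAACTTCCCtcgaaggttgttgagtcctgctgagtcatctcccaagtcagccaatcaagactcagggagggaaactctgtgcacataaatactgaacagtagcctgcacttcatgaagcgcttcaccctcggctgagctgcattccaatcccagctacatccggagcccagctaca
Cxcl11 (chr14:15973478-15973777, plus strand): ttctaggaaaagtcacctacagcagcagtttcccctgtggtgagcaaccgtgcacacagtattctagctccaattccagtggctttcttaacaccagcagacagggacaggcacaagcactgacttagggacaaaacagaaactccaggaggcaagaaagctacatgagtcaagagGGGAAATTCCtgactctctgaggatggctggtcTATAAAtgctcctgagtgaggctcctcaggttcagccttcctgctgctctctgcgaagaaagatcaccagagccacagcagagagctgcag
Ccl20 (chr9:91836909-91837208, plus strand): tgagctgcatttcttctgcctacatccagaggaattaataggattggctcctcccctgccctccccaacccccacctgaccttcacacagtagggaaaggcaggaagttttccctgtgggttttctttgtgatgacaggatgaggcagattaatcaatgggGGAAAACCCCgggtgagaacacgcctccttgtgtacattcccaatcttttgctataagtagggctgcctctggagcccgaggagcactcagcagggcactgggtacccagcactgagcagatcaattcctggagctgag
Ccl7 (chr10:67513845-67514144, plus strand): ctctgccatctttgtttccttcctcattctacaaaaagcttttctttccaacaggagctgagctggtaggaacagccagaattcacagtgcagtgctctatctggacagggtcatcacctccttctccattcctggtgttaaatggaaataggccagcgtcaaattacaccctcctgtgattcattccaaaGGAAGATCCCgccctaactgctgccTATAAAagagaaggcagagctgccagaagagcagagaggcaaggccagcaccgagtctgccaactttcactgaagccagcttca

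Of the 45 genes, 35 had a promoter in this collection. An NF-kB consensus match was found in 9 of the 35, or 25.7%, against 7.6% of all 27457 promoters of the same length. The 9 genes were Ccl7, Ccl9, Ccl20, Ccr3, Cxcl1, Cxcl2, Cxcl6, Cxcl10 and Cxcl11. Counting the first base of the gene as 0, the matches began at -89 in Ccl20, -74 in Cxcl11 and -59 in Ccl7, and at -187, -128 and -127 in Cxcl10, the last 2 of which overlap. TATAAA was found in 10 of 35 member promoters, or 28.6%, against 14.3% of all promoters. The interferon-stimulated response element was found only in Ccl19 and Cxcl10, that is in 5.71% of member promoters against 3.77% of all. A match describes these letters alone.

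In total 44 member probesets were expressed in at least 1 organ, or 75.9%, against 63.3% of all probesets on the chip. They represented 37 genes, and by the brightest probeset 26 of 29 ligands, 6 of 12 receptors and 4 of 4 atypical receptors were expressed. The 8 genes expressed in no organ were Ccr2, Ccr4, Ccr10, Cx3cr1, Cxcl2, Cxcl6, Cxcr1 and Cxcr2. An expressed member was expressed in a median of 4 organs, against 12 for all expressed probesets. Expression in a single organ was seen for 11 members, or 25% of those expressed, against 15.4% of all, and expression in at least 25 organs for 4 members, against 34.4% of all. Those 4 were probesets of Cxcl12 (2 probesets), Ccl6 and Cxcl16, and the brightest Cxcl12 probeset alone was expressed in all 31 organs.

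**Figure D1:**
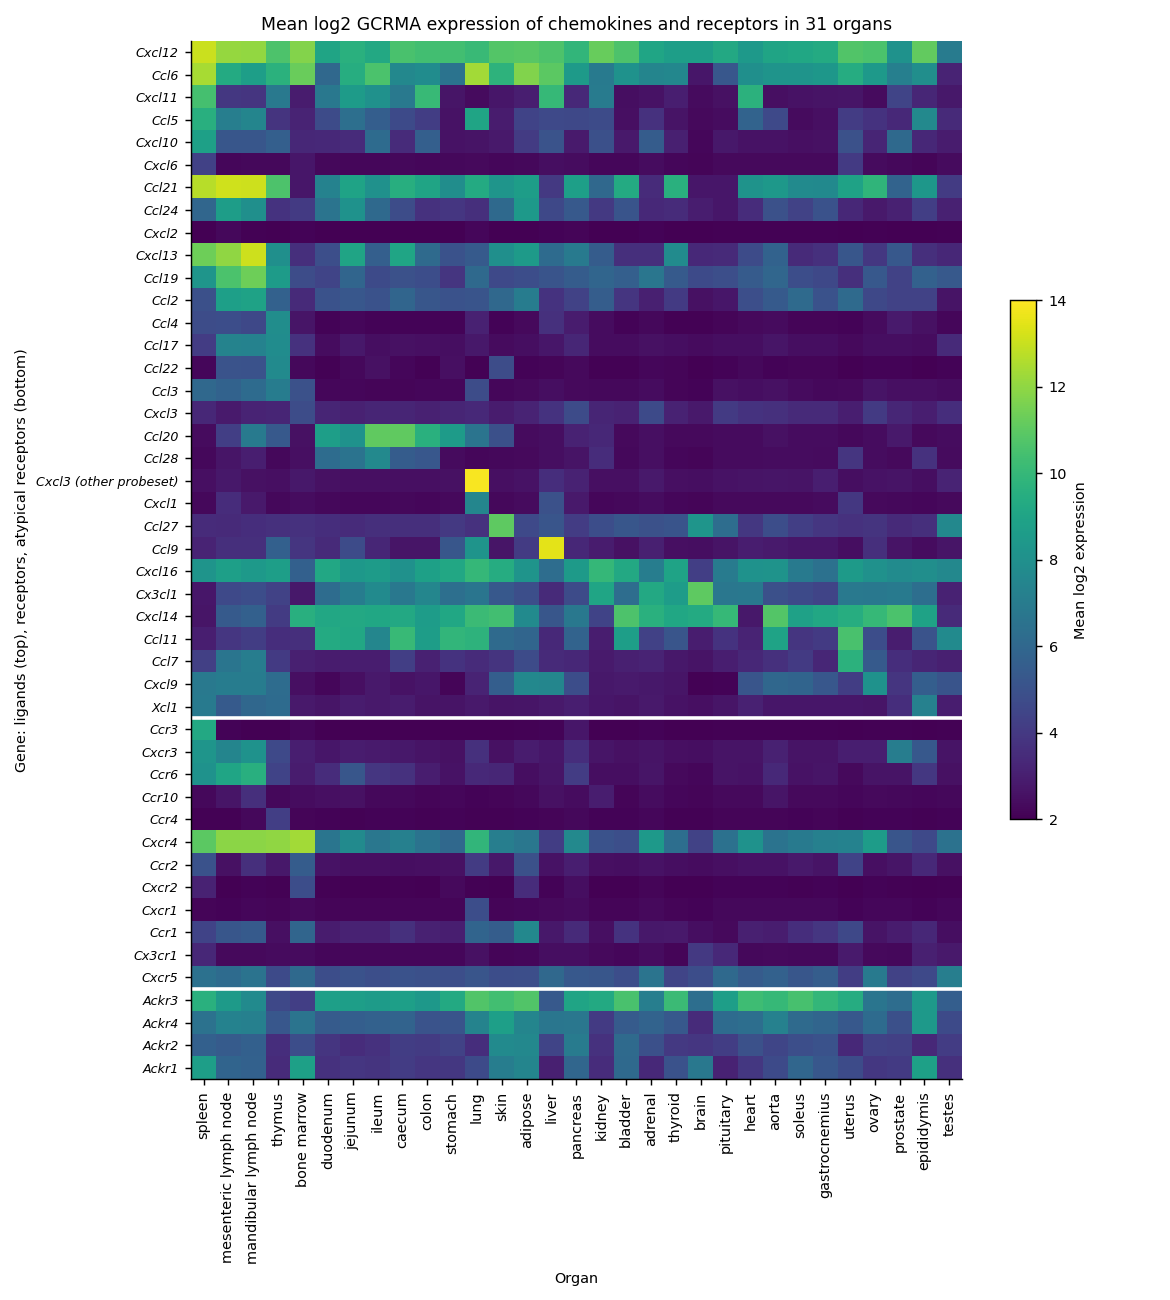
Mean log2 expression of each gene (rows, grouped as ligands, receptors and atypical receptors) in 31 organs (columns), by the brightest probeset of each gene, plus the lung-specific probeset of Cxcl3. Brighter colour is a higher mean, and the bright single cells are Cxcl3 in lung (13.90) and Ccl9 in liver (13.52), while Cxcl12 is bright in nearly every column.

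The spleen and the lymph nodes expressed the most members. The mandibular lymph node expressed 18 member genes, or 40%, against 31.5% of all probesets. The spleen and the mesenteric lymph node expressed 17 each, or 37.8%, against 32% and 32.2% of all probesets. Adipose tissue expressed 15, or 33.3%, which is near its 31% of all probesets. The jejunum and the lung expressed 13 each, or 28.9%, against 31.4% and 32.3% of all probesets. The thymus expressed 12, or 26.7%, against 32%. Brain, pituitary, bone marrow and testes expressed 5 each, or 11.1%, against 28.5% to 31.4% of all probesets. Of the 36 genes expressed by their brightest probeset, 18 had their highest organ mean in spleen, a lymph node, thymus or bone marrow, or 50%, against 18.9% of all expressed probesets. These were 14 ligands, 4 receptors and no atypical receptor.

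Members that set 1 organ apart from every other organ were about as frequent as on the chip as a whole. For 12 of the 44 expressed member probesets, or 27.3%, all arrays of the leading organ lay above all other arrays, against 29.4% of all expressed probesets. They represented 8 genes: Ccl4, Ccl9, Ccl22, Ccl27, Ccr3, Cx3cl1, Cxcl3 and Cxcl12. The leading organ of the rest was shared with, or within the spread of, at least 1 other organ.

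Among these 8 genes, Ccl9 was the marker of the liver. Ccl9, a C-C ligand described in rodents, ranged over 13.03, 13.54 and 13.83 (lowest, median and highest of 9 arrays) in liver, and over 6.47, 8.39 and 9.28 in the lung, its second organ. All liver arrays therefore lay far above the lung arrays, and in all other organs its mean was at or below 5.70. Ccr3, the eotaxin receptor best known from eosinophils, was at 8.16, 9.21 and 10.66 in spleen, and its next organ mean was 2.73, in pancreas. The spleen is thus the only organ in which Ccr3 was expressed in these arrays. Its ligand Ccl11 averaged 3.01 in spleen and led in the uterus, and across organs the pair had r = -0.22. Ccl27, an epidermal chemokine that draws skin-homing T cells, was at 9.51 to 11.94 in skin with a mean of 11.02, against means of 8.24 in brain and 7.59 in testes, the only other organs that expressed it. Cx3cl1, the membrane-bound fractalkine made by neurons, was at 10.24, 10.93 and 11.72 in brain, against 8.56, 9.42 and 10.07 in adrenal. It was expressed in 14 organs. Its receptor Cx3cr1, the microglial fractalkine receptor, also had its highest mean in brain, but at 3.99 it was below the expression limit.

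The probesets of Cxcl3 disagreed. Cxcl3 is a neutrophil attractant of the Cxcl1 family. A pair of its 5 probesets, 1388033_at and 1393182_at, was high in the lung and nowhere else. In lung 1388033_at ranged over 13.55, 13.89 and 14.16, and 1393182_at over 11.71, 12.16 and 12.28. In all other organs their means were at or below 3.58, with 1 exception among the arrays: liver female 5 had 10.36 and 7.87, while the other 8 liver arrays lay between 2.22 and 2.88. The other 3 Cxcl3 probesets were expressed in no organ, and their brightest, 1388032_a_at, had r = 0.04 with 1388033_at across organs. Which of them measures the Cxcl3 transcript was not tested. Cxcl1, of the same gene cluster, was also expressed only in lung, at 6.78, 7.59 and 8.16, and its second organ was liver, where male 3 reached 9.07 and the other 8 arrays 2.83 to 6.52. The common receptor of these ligands, Cxcr2, was expressed in no organ and had its highest mean, 4.85, in bone marrow.

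Ccl19, Ccl21 and Cxcl13 had their highest means in lymph nodes. Ccl21, which guides T cells and dendritic cells into nodes, had means of 12.73 in spleen, 13.12 in mesenteric node, 13.07 in mandibular node and 10.64 in thymus. The ranges of both nodes overlapped, and the order of the nodes turned when female 1 or male 1 was left out. Ccl19, which shares a receptor with Ccl21, averaged 10.60 ± 0.62 (SD, n = 8) in mesenteric node and 11.33 ± 0.44 (SD, n = 9) in mandibular node. Cxcl13, the B cell follicle chemokine, averaged 11.37 ± 0.34 (SD, n = 8) in spleen, 12.02 ± 0.76 (SD, n = 8) in mesenteric node and 13.11 ± 0.38 (SD, n = 9) in mandibular node. Its receptor Cxcr5 was measured by 2 probesets that differed. The probeset 1369911_at had its highest means in spleen (6.17), mesenteric node (5.65) and mandibular node (6.37), all under the expression limit, and r = 0.74 with Cxcl13 across organs, whereas the brighter 1386557_at was highest in testes (7.14) and ovary (6.96) and had r = 0.08. Ccr6, the receptor for Ccl20 on B cells and some T cells, was expressed in spleen (8.13), mesenteric node (9.06) and mandibular node (9.58) alone.

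The thymus led for Ccl3, Ccl4, Ccl17 and Ccl22. Ccl22 and Ccl17 are ligands of Ccr4, the receptor that in mice draws maturing thymocytes into the medulla. Ccl22 was at 7.27, 7.69 and 8.34 in thymus by 1370620_at, with 5.07 in the mesenteric node as its next mean. Ccl4, made by activated T cells and macrophages, was at 6.95, 7.72 and 8.82 in thymus and 4.85 in its next organ. Ccl17 was less restricted, with means of 7.86 in thymus, 7.39 in mesenteric node and 7.32 in mandibular node. The highest mean of Ccr4 was also in thymus, at 4.20 and below the expression limit.

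Other members were widespread. Cxcl12, which retains blood precursors in the marrow through Cxcr4, averaged 13.02 in spleen and 6.98 in testes, its lowest organ. The probesets of Cxcl12 did not share a leading organ: 1369633_at and 1387655_at led in spleen, whereas 1388583_at averaged 12.97 in bone marrow and 11.58 in spleen. Cxcr4 averaged 12.02 ± 0.20 (SD, n = 8) in thymus and 12.33 ± 0.13 (SD, n = 9) in bone marrow by the brightest probeset, and its other 2 probesets led in thymus. Ackr3, a scavenger of Cxcl12, was expressed in 24 organs, and its means in lung (10.75) and adipose tissue (10.74) did not differ beyond their spread. Across the 31 organs Cxcl12 had r = 0.48 with Cxcr4 and r = 0.04 with Ackr3. Cxcl14, an epithelial chemokine, was expressed in 23 organs, led by aorta (10.81), bladder (10.65) and prostate (10.62), with its lowest mean of 2.66 in spleen. Cxcl16, a scavenger and adhesion ligand on macrophages and epithelia, averaged 9.98 ± 0.38 (SD, n = 10) in lung, which did not differ from its mean in kidney beyond their spread. Ccl6 likewise averaged 12.44 ± 0.44 (SD, n = 8) in spleen and 12.34 ± 0.44 (SD, n = 10) in lung, and was expressed in 26 organs.

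Of 20 ligand and receptor pairs chosen for comparison, 14 had both partners on the chip. Besides the pairs above, the correlations of organ means (n = 31) were 0.76 for Ccl22 and Ccr4, 0.61 for Ccl17 and Ccr4, 0.62 for Cxcl10 and Cxcr3, 0.44 for Cxcl9 and Cxcr3, 0.23 for Ccl20 and Ccr6 and -0.18 for Ccl27 and Ccr10. Organ means share arrays and many organs lie near background in both partners, so these are descriptions. Chemokine genes lie in clusters, and 18 pairs of member genes had at most 4 other genes between them. Their median r was 0.22, against 0.13 over all 990 pairs of member genes. Ccl3 and Ccl4, which are adjacent on chromosome 10, had r = 0.87, and the same organ led in 3 of the 18 pairs. Cxcl3 entered these pairs by 1388032_a_at, which was expressed in no organ and had r = 0.006 with Cxcl1. Pairs by the Cxcl3 probesets that were high in lung, where Cxcl1 also led, are not given here.

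The uterus led for Ccl11 and Ccl7, with 1 array apart. Ccl11 was at 4.84, 13.00, 12.11, 11.52 and 11.39 in uterus, whereas Ccl7, which draws monocytes, had values of 3.50, 11.27, 11.37, 11.18 and 11.14. The low value was that of female 1 in both genes. With that array left out, a setting chosen after the values were seen, the uterus averaged 11.24 ± 0.10 (SD, n = 4) for Ccl7, and it led for both genes with or without that array. Without female 2 in its place, the caecum (10.03) passed the uterus (9.96) for Ccl11. The next organ of Ccl11 was the caecum at 10.10 ± 0.54 (SD, n = 10), which overlapped the uterus only through female 1. Ccl7 was otherwise expressed in the mesenteric and mandibular nodes alone, at 6.66 and 7.09.

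Several further organs led for single members. Ccr1, a receptor of Ccl3 and Ccl5, was expressed only in adipose tissue, at 7.21, 7.56 and 8.08. The atypical receptors Ackr2, which removes inflammatory C-C ligands, and Ackr4, which removes Ccl19 and Ccl21, were highest in skin. Ackr2 averaged 7.76 ± 0.68 (SD, n = 9) in skin and 7.59 ± 0.59 (SD, n = 10) in adipose tissue, which do not differ beyond their spread. Ackr4 averaged 8.76 ± 0.46 (SD, n = 9) in skin and 8.46 ± 0.84 (SD, n = 3) in epididymis. Ackr1 was at 8.22, 7.55 and 10.74 on the 3 epididymis arrays and averaged 8.80 in bone marrow and 8.72 in spleen, so that the order of these organs rests on 1 array. Cxcl9 led in ovary, at 7.96, 7.98, 8.38, 8.47 and 7.77, and averaged 7.59 in adipose tissue and 7.52 in liver. Ccl5 averaged 9.57 ± 0.63 (SD, n = 8) in spleen and 8.99 ± 0.44 (SD, n = 10) in lung.

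The mesenteric lymph node was first set against the mandibular lymph node. Before these results, 3 arrays have to be named, because they lay closer to the other node than to their own over all probesets. The mandibular node array of male 5 had r = 0.992 with the mean of the mesenteric node and 0.983 with the remaining mandibular node arrays, and the mesenteric node array of male 5 had r = 0.982 with the mean of the mandibular node and 0.963 with its own. For mandibular node male 3 the values were 0.983 and 0.982. With all 17 arrays, no member was called different between the nodes, where called means an adjusted p under 0.05 by limma, a difference over 2-fold and a mean above 6.65 on at least 1 side. The background was 0.0161% of all probesets, or 5 of them (0.00322% higher and 0.0129% lower in the mesenteric node). An unadjusted limma p under 0.05 was found for 8 members, and the share of all probesets under that limit is not given here. The largest member difference was that of Ccl20, at -2.70 (95% interval -4.41 to -0.98, limma adjusted p = 0.141). Ccl20, the ligand of Ccr6, was at 2.32, 2.59 and 8.26 in mesenteric node and at 3.02, 7.40 and 8.12 in mandibular node. The 2 arrays of male 5 had 8.26 in mesenteric and 3.02 in mandibular node, the highest mesenteric value and the lowest mandibular value. Whether these 2 arrays were exchanged is not known, and the labels were kept. The sum of 4 salivary gland markers was 29.8 on the mesenteric array of male 5 and 9.38 to 10.7 on the other mesenteric arrays. On the mandibular arrays it was 10.8 for male 5, 9.47 for male 3 and 20.4 to 28.1 for the others. The sum of 4 large bowel markers was 48.8 on the mesenteric array of male 4, against 9.55 to 18.1 on the other mesenteric and 9.24 to 13.2 on the mandibular arrays. With all 17 arrays no marker was called between the nodes, where only 5 of all probesets were called. Marker calls without the 3 arrays named above are not given here. The part of neighbouring tissue in the member differences was not tested.

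Without these 3 arrays, 5 members were called, and 2.13% of all probesets. This setting was chosen after the arrays were seen, and because arrays unlike their own group were left out, it favours a difference. Leaving out male 5 alone, one of the planned settings, called the same 5 members and 678 probesets in all. Without the 3 arrays Ccl20 was at 2.32, 2.47 and 7.92 in mesenteric node and 7.25, 7.45 and 8.12 in mandibular node (difference -3.66, limma adjusted p = 0.00683). Cxcl13 was at 11.20, 11.70 and 12.87 in mesenteric node and 12.83, 13.26 and 13.67 in mandibular node (difference -1.41, limma adjusted p = 0.00934). Ccl24, a ligand of Ccr3, was higher in the mesenteric node by 1.44 (limma adjusted p = 0.0201), Ccl6, a macrophage chemokine of rodents, by 1.17 (limma adjusted p = 0.0154) and Ackr3 by 1.25 (limma adjusted p = 0.0446).

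The spleen and the lymph nodes, taken as the mean of both nodes, differed in 16 members, or 27.6%, against 4.56% of all probesets. Of these, 9 were higher in spleen, against 2.93% of all probesets, and 7 were lower, against 1.63%. Without the 3 node arrays named above the count was again 16. Higher in spleen were the interferon-induced ligands Cxcl10 and Cxcl11, Ccl5, Ccl6, Xcl1, Cxcl12, Ccr3, Ackr1 and Ackr3, and lower in spleen were Ccl2, Ccl7, Ccl17, Ccl19, Ccl24, Cxcl13 and Ccr6.

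Several organs lay below the expression limit for a called member, and there, in this and the other comparisons, the size and order of the fitted differences depend on the background estimate. For Ccr3 the values were 8.16, 9.21 and 10.66 in spleen, against 1.98, 2.02 and 3.07 in nodes, a difference of 7.10 ± 0.21 (SE, limma adjusted p = 4.93e-16) and the ranges were far apart. Cxcl11 was at 10.23, 10.38 and 10.96 in spleen, against 2.46, 3.53 and 6.87 in nodes, a difference of 6.54 ± 0.49 (limma adjusted p = 2.1e-09). Cxcl10, which attracts Cxcr3-bearing T cells like Cxcl11, was at 8.19, 8.62 and 9.75 in spleen, against 2.83, 5.17 and 6.74 in nodes (difference 3.65 ± 0.41, limma adjusted p = 8.9e-07). All spleen arrays lay above all node arrays for these 3 genes. Their receptor, Cxcr3, averaged 8.28 in spleen, 7.44 in mesenteric and 8.11 in mandibular node and was not called. Cxcl11 was not a spleen gene alone, since its means were 10.10 in colon, 10.02 in liver and 9.73 in heart.

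Among the ligands lower in spleen was Ccl2, the main attractant of monocytes. It was at 3.65, 4.99 and 5.73 in spleen, against 8.09, 8.88 and 9.56 in nodes, without overlap and below the expression limit in spleen (fitted difference -3.92 ± 0.23, limma adjusted p = 5.14e-11). Its neighbour Ccl7 was at 3.16, 4.13 and 5.30 in spleen, against 5.87, 6.91 and 7.88 in nodes, and Ccl17 at 3.53, 3.87 and 5.21 in spleen, against 6.40, 7.44 and 8.77 in nodes, again without overlap. Ccl19 was at 7.70, 8.08 and 9.53 in spleen, against 9.97, 11.13 and 12.28 in nodes (difference -2.70 ± 0.25, limma adjusted p = 5.85e-08). Ccl21, which shares its receptor with Ccl19, had a difference of -0.38 ± 0.13 (limma adjusted p = 0.0357), under the fold limit. Cxcl13 was lower by 2.31-fold and Ccr6 by 2.23-fold, and for both the ranges of spleen and nodes overlapped. The call of Cxcl13 was lost in 1 fit over all organs and sexes (limma adjusted p = 0.0916).

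The probesets of Cxcl12 were not called alike. By 1387655_at the difference was 3.18 ± 0.23 (limma adjusted p = 1.59e-09), whereas by 1369633_at and 1388583_at it was 0.93 and 0.68, which is under the fold limit.

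The markers of cell types moved between these organs too. All 6 T cell markers were lower in spleen, with a summed level of 56.4 to 60.5, against 64.4 to 69.8 in mesenteric and 66.5 to 71.1 in mandibular node. Of 8 macrophage markers 7 were higher, with sums of 88.6 to 93.5 in spleen, against 69.9 to 78.0 in mesenteric and 73.4 to 80.2 in mandibular node, and both erythroid markers were higher. Of 4 markers of node and vessel stroma 3 were lower, with sums of 13.5 to 15.9 in spleen, against 31.4 to 40.3 in mesenteric and 32.6 to 40.3 in mandibular node. B cell marker sums overlapped, at 52.3 to 54.8 in spleen, against 46.6 to 54.3 in mesenteric and 52.5 to 55.2 in mandibular node, though 1 of 5 B cell markers was lower in spleen. In other lists 2 of 3 neutrophil and 1 of 5 natural killer cell markers were higher in spleen. Lower were 2 of 4 plasma cell markers and 1 of 3 thymocyte markers. Their part in the chemokine differences was not tested.

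**Figure D2:**
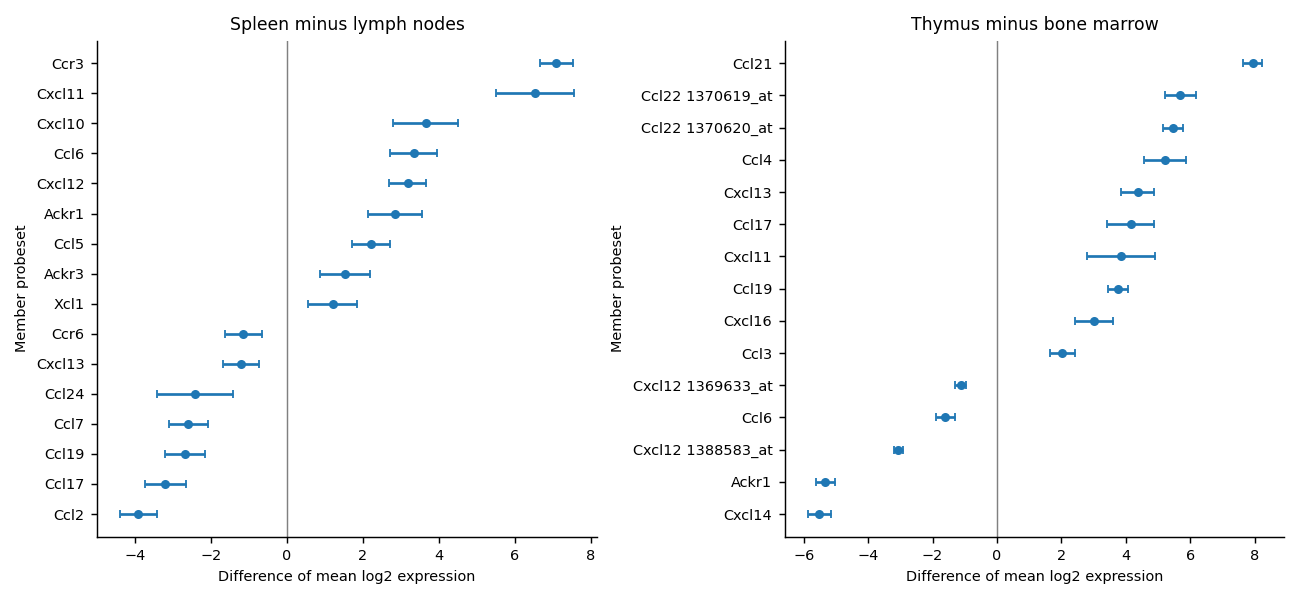
Differences of mean log2 expression for the member probesets called between spleen and lymph nodes (left) and between thymus and bone marrow (right), with 95% limma intervals as bars; positive values are higher in spleen or thymus. The fitted difference is 7.10 for Ccr3 and 6.54 for Cxcl11 on the left and 7.94 for Ccl21 on the right.

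The thymus and the bone marrow, the primary lymphoid organs, differed in 15 members, or 25.9%, against 15.7% of all probesets. Of these, 10 were higher in thymus (10.1% of all probesets) and 5 lower (5.63%). Ccl21 was at 9.93, 10.67 and 11.20 in thymus, against 2.26, 2.91 and 3.22 in bone marrow, a difference of 7.94 ± 0.13 (SE, limma adjusted p = 7.68e-16). Its partner Ccl19 was higher by 3.77 ± 0.14 (limma adjusted p = 1.01e-11). Both probesets of Ccl22 were higher, by 5.69 and 5.46, Ccl4 by 5.21, Ccl17 by 4.15 and Cxcl13 by 4.37, all without overlap between the organs. Ccl3, the neighbour of Ccl4 on the chromosome, was higher by 2.03 and Cxcl16 by 3.01.

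Cxcl11 was higher in thymus by 3.85 ± 0.50 (limma adjusted p = 6.56e-06). Its thymus arrays lay at 6.39 to 7.44, against 2.32 to 2.71 in 8 bone marrow arrays and 6.81 in the ninth, female 4, so that the organs overlapped through that array.

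The members higher in bone marrow were Cxcl14, Ackr1, Ccl6 and Cxcl12. Cxcl14 was at 3.71, 3.92 and 4.58 in thymus, against 8.64, 9.58 and 10.26 in bone marrow (difference -5.52 ± 0.17, limma adjusted p = 7.7e-13). Ackr1, the Duffy antigen of red cell precursors and venules, was at 3.28, 3.47 and 3.72 in thymus, against 8.20, 8.85 and 9.38 in bone marrow (difference -5.33 ± 0.14, limma adjusted p = 1.39e-13). Cxcl12 was lower in thymus by 1.13 with 1369633_at and by 3.07 with 1388583_at, while 1387655_at gave a difference of 0.60 (limma adjusted p = 0.0983). Cxcr4, which is bright in both organs, was not called by any of its 3 probesets.

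As for cell type markers, 6 of 6 T cell markers were higher in thymus and 2 of 2 erythroid and 3 of 3 neutrophil markers lower. Of 3 thymocyte markers 2 were higher, while 3 of 5 B cell, 4 of 8 macrophage and 3 of 4 plasma cell markers were lower. Natural killer cell markers were split, with 1 of 5 higher and 1 lower. Among stroma markers 1 of 4 was lower, and among general leukocyte markers 1 of 3 was higher. The erythroid sum had a median of 4.85 in thymus, against 26.6 in bone marrow, and the T cell sum 76.8 to 77.9 in thymus, against 29.1 to 38.0 in bone marrow. Their part in the differences was not tested. With the 2 bone marrow arrays whose sex-linked genes went against the labelled sex, male 5 and female 2, left out, 15 members were called again.

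Along the bowel, Ccl20, Ccl24, Ccl28, Ccl11 and Cxcl13 followed different courses. Ccl20, made by the epithelium over lymphoid follicles, was expressed in all 5 segments and averaged 8.72 ± 1.31 (SD, n = 9) in duodenum, 8.10 ± 0.65 (SD, n = 9) in jejunum, 11.06 ± 1.19 (SD, n = 10) in ileum, 11.05 ± 0.85 (SD, n = 10) in caecum and 9.60 ± 0.48 (SD, n = 10) in colon. The ileum and the caecum did not differ beyond their spread. Ccl24 averaged 6.61 in duodenum, 8.11 in jejunum, 6.12 in ileum, 4.81 in caecum and 3.72 in colon, and so passed the expression limit in no bowel segment but the jejunum. Ccl28, an epithelial chemokine that draws antibody-secreting cells, peaked in ileum at 7.66 and averaged 6.25 in duodenum, 6.59 in jejunum, 5.51 in caecum and 5.26 in colon.

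**Figure D3:**
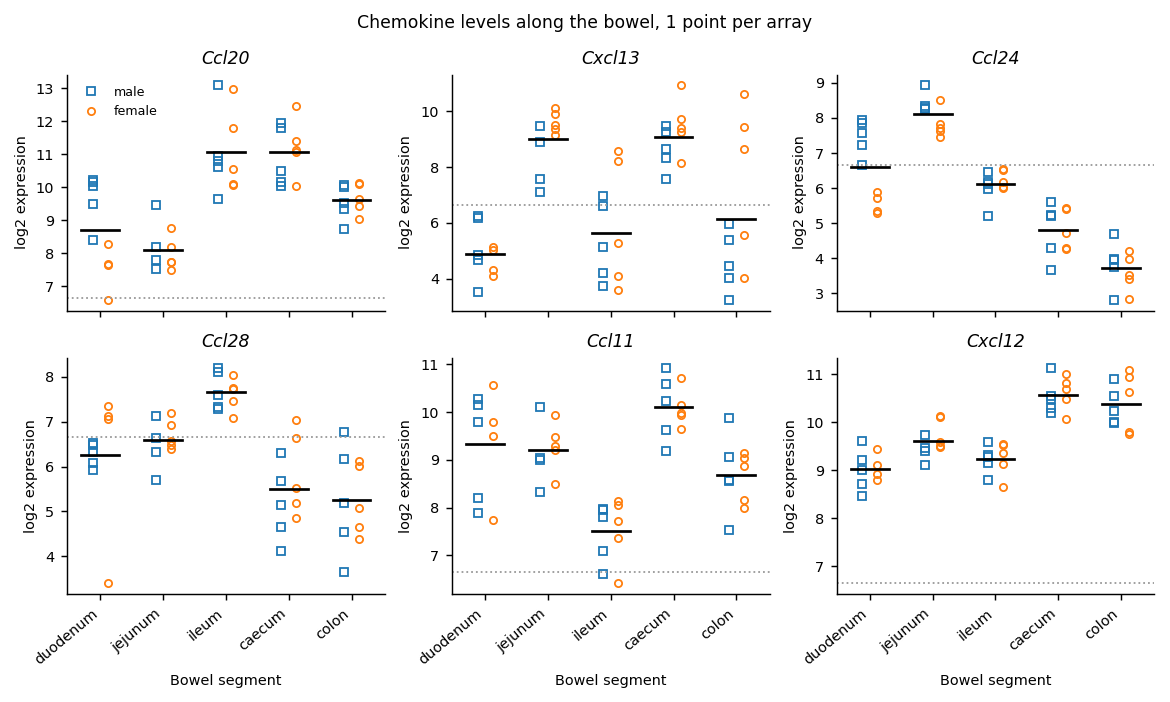
Log2 expression of 6 chemokines in 5 bowel segments from duodenum to colon, 1 point per array with males as squares and females as circles; black bars are segment means and the dotted line is the expression limit of 6.65. Ccl20 is highest in ileum (11.06) and caecum (11.05), Ccl24 in jejunum (8.11) and Ccl28 in ileum (7.66), and Cxcl13 varies widely between colon arrays.

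Between small bowel (duodenum, jejunum and ileum) and large bowel (caecum and colon), 7 members were called, or 12.1%, against 4.69% of all probesets; 2 were higher in small bowel (2.16% of all probesets) and 5 lower (2.53%). Ccl24 was at 5.20, 6.59 and 8.93 in 28 small bowel arrays, against 2.82, 4.25 and 5.59 in 20 large bowel arrays (difference 2.66 ± 0.15, SE, limma adjusted p = 1.79e-18), with little overlap. Ccl28 was higher in small bowel by 1.44 ± 0.25 (limma adjusted p = 8.4e-06). Lower in small bowel were Cxcl12 by 2 probesets (1.19 and 1.36 on the log2 scale), Ccl21 (difference -1.18), Ccl20 (difference -1.07) and Cxcl13 (difference -1.12 ± 0.42, limma adjusted p = 0.0329), all with overlapping arrays. For Cxcl13 this averages unlike segments and is no steady course along the bowel. Its medians were 4.84 in duodenum, 9.36 in jejunum, 5.21 in ileum, 9.26 in caecum and 5.48 in colon. Of the cell type markers, 2 of 3 enterocyte markers and 1 marker each of T cells, natural killer cells, plasma cells and pancreas were higher in small bowel, and 3 of 4 large bowel markers and 1 of 4 stroma markers were lower. Their part in the differences was not tested. The Cxcl13 call was lost, with adjusted p of 0.0678 to 0.117, when 1 of male 2, 3 or 4 or female 2, 3 or 5 was left out. The Ccl20 call was lost through the fold limit without male 1, male 5 or female 5, at -0.92 to -0.98.

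The ileum and the jejunum, neighbouring segments, differed in 7 members, again 12.1%, against 2.08% of all probesets. Of these, 3 were higher in ileum (1.03% of all probesets) and 4 lower (1.05%). Ccl20 was at 9.65, 10.71 and 13.09 in ileum, against 7.49, 7.81 and 9.45 in jejunum, a 7.69-fold difference (2.94 ± 0.46, SE, limma adjusted p = 0.000199) without overlap. Ccl28 was higher by 1.08 and Ccl6 by 1.11, and the Ccl6 call was lost without female 1 through the fold limit. Ccl24 was at 5.20, 6.14 and 6.53 in ileum, against 7.47, 8.26 and 8.93 in jejunum (difference -2.02 ± 0.17, limma adjusted p = 1.78e-07). Ccl11, the eotaxin that draws eosinophils into the gut wall, was lower in ileum by 1.69 on the log2 scale, also without overlap. Cxcl13 was at 3.61, 5.21 and 8.58 in ileum, against 7.11, 9.36 and 10.13 in jejunum (difference -3.29 ± 0.67, limma adjusted p = 0.0021). Cxcr4 was lower by 1.34 with 1 of its 3 probesets; by the other 2 the differences were -1.60, with no mean over the expression limit, and -0.96, under the fold limit.

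Cxcl13 moved with B cell markers from array to array in some segments. This relation was examined after its values were seen, over the mean level of 5 B cell markers, in 5 segments. In jejunum r was 0.98 over 9 arrays (exact permutation test, two-sided, adjusted p = 0.000475, rho = 0.95) and 0.95 without the 2 arrays farthest from the median. In ileum r was 0.94 over 10 arrays (permutation test, adjusted p = 0.00025, rho = 0.92) and 0.88 without the 2 farthest. In colon r was 0.90 (permutation test, adjusted p = 0.0021) and 0.81 without the 2 farthest arrays, while rho was 0.44 (permutation test, adjusted p = 0.312). The B cell mean of colon was 3.72 on female 4, 6.31 on female 5 and 6.67 on female 3. On every other colon array it was 2.31 to 2.42, so that r rests on those females. Both sexes were pooled in each segment. In caecum r was 0.61 (permutation test, adjusted p = 0.118) and turned to -0.54 without the 2 farthest arrays, so that it rests on those arrays. In duodenum, where the B cell mean stayed at 2.31 to 2.65, r was -0.35 (exact permutation test, adjusted p = 0.352). In jejunum Cxcl13 was lowest, at 7.11, on an array with a B cell mean of 2.97, and highest, at 10.13, on the array with the highest mean, 7.01. In the comparison of ileum and jejunum 1 of 5 B cell markers and 2 of 6 T cell markers were also lower in ileum; the B cell sum was 12.1 to 27.1 in ileum, against 12.7 to 35.0 in jejunum. The part of lymphoid tissue caught in a piece of bowel was not tested.

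**Figure D4:**
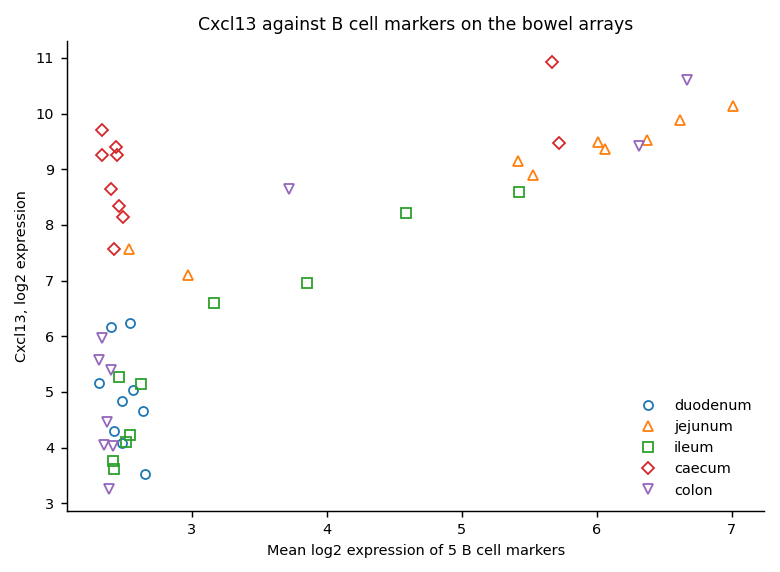
Log2 expression of Cxcl13 (vertical) against the mean log2 expression of 5 B cell markers (horizontal), 1 point per bowel array and 1 symbol per segment. In jejunum and ileum the points rise together (r = 0.98 and 0.94), while the duodenum arrays stay at a B cell mean of 2.31 to 2.65.

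The brain and the pituitary differed in 6 members, or 10.3%, against 19.7% of all probesets. Only 8 members were expressed in either organ, so that 6 of 8 expressed members were called, against 52.7% of all expressed probesets; the difference was not tested. Higher in brain were Cx3cl1, Ackr1, Ccl27 and Cxcl12 (10.3% of all probesets were higher), and lower were Cxcl16 and Ackr3 (9.47%). Cx3cl1 was at 10.24, 10.93 and 11.72 in brain, against 6.21, 6.82 and 7.12 in pituitary (difference 4.27 ± 0.19, SE, limma adjusted p = 9.35e-13). Ackr1 was at 6.07, 6.80 and 7.28 in brain, against 2.18, 3.03 and 3.85 in pituitary (difference 3.67 ± 0.22, limma adjusted p = 4.98e-11). Ccl27 was higher by 1.93 and Cxcl12 by 3.47 with 1388583_at alone; with 1369633_at the difference was -0.50. Cxcl16 was at 3.44, 4.30 and 5.20 in brain, against 6.21, 6.96 and 7.78 in pituitary (difference -2.78 ± 0.21, limma adjusted p = 1.47e-09), and Ackr3 was lower by 2.38 on the log2 scale. None of the 6 overlapped between the organs. For all comparisons of organs or sexes, the share of all probesets without overlap is not given here. Lack of overlap therefore describes the named members alone.

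Sex differences were sought in each of the 26 somatic organs. Among 1508 comparisons of a member within an organ, 6 were called, or 0.398%, against 0.312% over all probesets and organs. They concerned 5 genes in 3 organs, adipose tissue, adrenal and duodenum. In 23 organs no member was called by limma. Over all organs 132 comparisons had an unadjusted limma p under 0.05 and 13 an adjusted p under 0.05. The shares of all probesets under these p limits are not given here, so these counts describe the members alone. The methods' t-test called 4. The aorta, heart and bone marrow, where no probeset at all was called, hold the 4 arrays whose sex-linked genes went against the labelled sex; without those arrays 6 members were called again.

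In adipose tissue both probesets of Cxcl9 were male-biased, against a background of 0.197% of all probesets (0.0548% male-biased). Cxcl9 is an interferon-gamma-induced ligand of Cxcr3. By 1373544_at the values were 8.01, 8.30, 8.43, 8.22 and 8.95 in males, against 7.11, 7.10, 6.33, 6.32 and 7.18 in females. The lowest male lay above the highest female (difference 1.57 ± 0.24, SE, limma adjusted p = 0.0326). By 1382454_at they were 7.93, 8.23, 8.28, 8.02 and 8.58 in males, against 6.51, 6.18, 5.60, 5.94 and 6.52 in females (difference 2.06 ± 0.20, limma adjusted p = 0.00445). The call of 1373544_at was lost under 11 of 19 other settings, mostly those with 1 animal left out, and that of 1382454_at under 1. The summed macrophage markers of adipose tissue were 74.5 to 76.8 in males, against 72.1 to 77.9 in females, and the median sum of 6 pancreas markers was 24.6 in males, against 27.6 in females, without overlap.

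In the adrenal, Ccl6 was female-biased, against a background of 0.886% of all probesets (0.283% female-biased). Males had 7.34, 6.93, 6.60, 6.81 and 6.81, against 7.98, 8.42, 7.91, 7.95 and 7.78 in females (difference -1.11 ± 0.15, SE, limma adjusted p = 0.00612), without overlap. The macrophage marker sum was 44.8 to 50.9 in males, against 47.8 to 50.7 in females, and that of 4 stroma markers 17.2 to 18.0 in males, against 18.6 to 19.0 in females. On the array of female 2, the sum of 3 neutrophil markers was 33.0, against 10.1 to 10.7 in males and 10.6 to 16.6 in the other females, and that of 2 erythroid markers 16.4; without female 2 Ccl6 was still called lower in males (limma adjusted p = 0.0103). The part of the stroma and macrophage markers was not tested. Ccl5, a T cell and monocyte attractant, was also lower in male adrenals by 2.14 on the log2 scale (limma adjusted p = 0.0459), but no sex reached the expression limit.

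In the duodenum 3 members were male-biased, against a background of 2.78% of all probesets (2.27% male-biased). Ccl24 was at 7.24, 7.58, 7.94, 7.86 and 6.65 in males, against 5.71, 5.34, 5.90 and 5.30 in females (difference 1.89 ± 0.28, SE, limma adjusted p = 0.00761). Cxcl16 was at 10.28, 9.82, 9.86, 10.09 and 9.45 in males, against 9.25, 8.05, 8.30 and 7.79 in females (difference 1.55 ± 0.30, limma adjusted p = 0.0195). Ccl20 was at 8.40, 10.16, 10.03, 10.22 and 9.50 in males, against 8.28, 7.64, 7.69 and 6.60 in females (difference 2.11 ± 0.46, limma adjusted p = 0.0288). No array overlapped in any of these, although for Ccl20 male 1 and female 1 were close together. The Ccl20 call was lost under 9 of 19 other settings and that of Cxcl16 under 3. In the jejunum the difference was 0.62 for Ccl24, 0.25 for Ccl20 and 0.07 for Cxcl16, and in the ileum it was -0.28, -0.07 and 0.04 for the same genes; none was called.

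Markers of cell types differed between male and female duodenum as well. The sum of 3 enterocyte markers was 37.0 to 40.5 in males, against 32.9 to 36.9 in females, and that of 4 plasma cell markers 30.5 to 34.5 in males, against 24.1 to 29.4 in females. The sum of 5 natural killer cell markers was 16.2 to 19.7 in males, against 12.8 to 14.9 in females. Neuron and glia markers went the other way, with a sum of 17.4 to 18.6 in males, against at least 19.4 in females. All 6 pancreas markers were expressed in duodenum, with sums that overlapped between the sexes. The part of tissue composition in the chemokine differences was not tested.

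**Figure D5:**
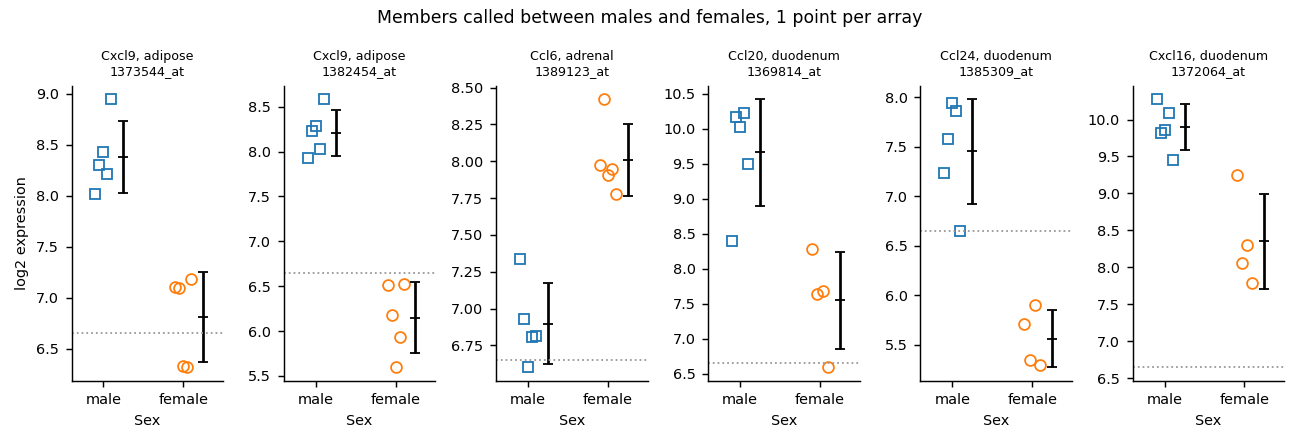
Log2 expression on each male (squares, left) and female (circles, right) array for the 6 probesets called between the sexes in adipose tissue, adrenal and duodenum; black marks are means with SD and the dotted line is the expression limit of 6.65. No panel has overlapping sexes, and Ccl6 in adrenal is the one panel with the females higher.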

How the data were processed

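The authors hybridised RNA from single organs to Affymetrix RAE230_2 genechips, removed arrays that failed quality control and deposited GCRMA values on a log2 scale. Which arrays were normalised together is not given in the sources used here. Array medians lay between 3.86 and 4.45, and the number of arrays per organ limits the precision. Of the probesets, 20826 carried a single gene symbol, 436 several and 9780 none in the platform annotation, and members were taken from those with a single symbol.

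All values computed here start from the deposited log2 values. Groups were compared with limma 3.58.1 in R 4.3.3 over all 31042 probesets, with Benjamini-Hochberg adjustment within each comparison. The fits held the arrays of the comparison alone, and a call needed an adjusted p under 0.05, a difference over 2-fold and a mean above 6.65 on at least 1 side. The limma code was tested on simulated data. The main organ fits used means of each organ and sex and held no animal term. Their SEs and p-values therefore treat arrays of 1 animal as independent. Same-numbered arrays of 1 sex were taken as the same animal, from the study's sample list, only for the animal block, the leaving out of animals and the comparison of sex differences between organs. For pituitary, ovary, bone marrow and adrenal that list numbers the samples in a separate run, so that the pairing is less sure for them (0 of 7 thymus and bone marrow pairs and 1 of 10 brain and pituitary pairs correlated above 0.1). Of 103 such pairs between compared organs, 42 had deviations that correlated above 0.1. Among them were 8 of 9 pairs of ileum and jejunum and 6 of 9 pairs of duodenum and caecum, but 1 of 9 pairs of duodenum and colon. Alternatives were the methods' t-test, other thresholds, quantile normalisation, centring, an animal block and leaving out each animal.

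Named genes were all members called between the sexes, up to 8 called members per direction in each organ comparison, expressed members by leading organ, members of the ligand and receptor pairs and members expressed in at least 25 organs. The members and lists were chosen with earlier results of these data known. On 4 arrays, aorta male 3, heart male 5, bone marrow male 5 and bone marrow female 2, sex-linked genes went against the labelled sex.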

Additional observations from a re-analysis of the deposited data

Results flagged for a closer look

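Of 54 groups of arrays examined for an array far from the others, 3 had one, where chance gives about 1 in 20 groups. Ccl11 was 4.84 and Ccl7 3.50 on the uterus array of female 1, while the other 4 uterus arrays lay above 11 for both genes. Ccl24 was 5.47 on the mesenteric lymph node array of male 5, one of the arrays that lay closer to the other node.

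For 5 genes called between the sexes, the male minus female difference was compared with that in the organ where it was smallest or opposite, so that the second organ was selected on its value. The differences differed by -1.85 for Ccl6 in adrenal against colon (limma adjusted p = 0.00896), by 3.31 for Ccl24 in duodenum against mesenteric lymph node (limma adjusted p = 0.0418) and by 2.67 for Cxcl16 in duodenum against liver (limma adjusted p = 0.00851). For Ccl20 against pancreas (3.48, limma adjusted p = 0.0549) and Cxcl9 against gastrocnemius (2.70, limma adjusted p = 0.245) the difference did not pass the threshold. The mesenteric node side of the Ccl24 result, -1.45, includes the array of male 5 flagged above. That array had 5.47, against 8.35 to 9.77 on the other 7 mesenteric arrays. The Ccl24 result without that array is not given here.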

How the results depend on the processing

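The counts of calls in this section are given without the matching shares of all probesets, so they show dependence on the setting alone. Without the expression limit the calls became 10 between the sexes (6 with it), 25 between spleen and nodes (16), 34 between thymus and bone marrow (15), 12 between ileum and jejunum (7) and 13 between brain and pituitary (6). A 4-fold limit left 1 call between small and large bowel and 3 between ileum and jejunum. At an adjusted p of 0.01, 3 sex calls were left. With the replicate number as a block, 3 sex calls were left as well, but males and females share only a number, and 35 of 106 such pairs correlated above 0.1. The animal block moved no count between organs by over 1.5 times. Between the nodes, 1 fit over all groups gave 1 call and leaving out the 3 arrays named above 5.

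Leaving out each animal gave 3 to 9 sex calls, 0 to 5 between the nodes, 16 to 19 between spleen and nodes, 15 in every case between thymus and bone marrow, 5 to 7 between small and large bowel, 7 to 8 between ileum and jejunum and 6 in every case between brain and pituitary. The leading organ was the same for 31 to 36 of 36 genes. Of 8 genes with several probesets, 5 had another probeset with the same leading organ. None of the 57 differences called between sexes or organs turned its direction under the alternatives run, nor did those of Ccl20, Cxcl13, Ccl24, Ccl6 and Ackr3 between the nodes. This was largely fixed in advance, since other thresholds and the t-test leave the size of a difference as it is. In addition, the 57 had been chosen as over 2-fold in the same arrays.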
